A study of Drosophila melanogaster with 5 samples.

Results

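Translation of 10 genes of the protein folding machinery was measured by ribosome profiling in Drosophila melanogaster S2 cells: Hsp83, Hsc70-3, Hsc70-4, Hsc70-5, Hsp60A, Gp93, DnaJ-1, Hsp23, Hsp26 and Hsp27. The genes were taken by name as heat shock proteins and chaperones. An open reading frame (ORF) was given to a gene when its span lay inside the gene's span in Release 6 of the genome and inside no other protein-coding gene. At least 1 ORF was found for all 10 genes, out of 6151 genes with an ORF in any of 5 lists of translated ORFs. By list, 8 of 7678 ORFs, 9 of 10503, 7 of 6621, 8 of 8456 and 10 of 12048 belonged to them, and these were 16 distinct ORFs.

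Ribosome profiling sequences the stretches of mRNA, or footprints, that ribosomes shield from an RNase. The P-site inferred from each footprint marks the position of the ribosome on the mRNA. The experiment asked how the RNase, the buffer and the elongation inhibitor cycloheximide affect the quality of the footprints, and the lists hold the ORFs then called as translated. S2 cells, an established hemocyte-like line from fly embryos, were either treated with cycloheximide for 3 min or left untreated. Lysates were digested overnight in the cold with A-RNaseI in Buffer 1, of 50 mM Tris and 150 mM NaCl, or with E-RNaseI in Buffer 2, of 100 mM Tris and, by the labels, 50 mM NaCl.

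The 4 standard lists were thus A-RNaseI and E-RNaseI, each with and without cycloheximide, and 1 further list came from a deeply sequenced sample of E-RNaseI without cycloheximide. Each enzyme was used in 1 buffer only, so enzyme and buffer cannot be told apart. The wash and lysis solutions of all samples, the untreated ones included, contained cycloheximide. Neither a heat shock nor any other stress is described for these cells. There was 1 sample per condition without replicates, and differences between conditions were not tested. The intervals below are exact 95% intervals that cover counting error only. The sources do not say whether the deep and the standard sample were 1 library.

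Chaperones bind unfolded or partly folded proteins and help them fold, move across membranes or stay soluble. Hsp70 proteins cycle on and off their clients with ATP, helped by J-domain proteins. Hsp90 proteins act later on proteins that are nearly folded, chaperonins enclose a client in a chamber, and small heat shock proteins hold unfolded clients without ATP. The Hsc70 genes are constitutively expressed relatives of the heat-inducible Hsp70 genes.

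P-sites summed over all stop codons, with the longest ORF kept for each, ranged from 610128 to 1947790 in the standard lists and came to 9141565 in the deep list. These sums cover called ORFs and are not library depths. Ratios between lists were therefore divided by a depth ratio taken from the ORFs that all 5 lists share, at 1165 stop codons. Of 10 hemocyte markers, 4 or 5 had an ORF in the standard lists and 8 in the deep list, where NimC1 and Ppn had none. In the deep list Pxn was densest, at 182 P-sites per 100 nt, while Hml, vkg and Col4a1 were at 0.473, 0.515 and 2.21. Of 11 markers of neurons, muscle, germ line and fat body, only bam was found by the same rule, with 8 P-sites in the standard list of E-RNaseI without cycloheximide and 44 in the deep list. Its deep density of 3.56 was above those of Hml, vkg and Col4a1. The span of vas held 1 ORF in each list that the rule did not assign. That of elav held 1 such ORF with E-RNaseI and cycloheximide and 1 in the deep list. P-site counts come from whole cultures, in which fewer translating cells and fewer ribosomes per cell cannot be told apart, nor can mRNA level and translation per mRNA, since no mRNA measurement was used here.

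The endoplasmic reticulum (ER) and cytosolic Hsp70 proteins and the cytosolic Hsp90 protein held most of the P-sites of the 10 genes. Hsp83, Hsc70-3 and Hsc70-4 together made up 81.2% to 83.4% of them in each list. The 10 genes held 2.33% (2.30 to 2.36) of all P-sites with A-RNaseI and cycloheximide and 2.02% (2.00 to 2.04) with E-RNaseI and cycloheximide. Without cycloheximide they held 2.60% (2.56 to 2.64) with A-RNaseI, 2.28% (2.24 to 2.32) with E-RNaseI and 2.17% (2.16 to 2.17) in the deep list. For each enzyme the share was higher in the standard list without cycloheximide than in the list with it, and the counting intervals did not overlap. The deep list also lay below the standard list of the same labels, again without overlap. The shares rest on all called stop codons, which numbered 5260 and 7035 with cycloheximide for A-RNaseI and E-RNaseI. Without it there were 4601 and 5811, and 7976 in the deep list. The part of these numbers in the shares was not tested.

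Hsc70-3, the fly BiP and main Hsp70 of the ER, had the highest P-site density of the 10 genes in all 5 lists. Its ORF of 656 codons lay in 2 exons of transcript FBtr0073608 on the minus strand, at chrX:11802616-11805020 (Release 6, as are all positions here; an ORF may be shifted by 1 nt at its outer end). After cycloheximide treatment it carried 7125 P-sites with A-RNaseI and 13408 with E-RNaseI, without it 6329 and 5468, and 77145 in the deep list. Per 100 nt of ORF these were densities of 362, 681, 322, 278 and 3920.0 P-sites, which were 72.5 to 143 times the median of all stop codons in the same list. Those medians were 4.99, 7.45, 3.85, 3.09 and 27.4 P-sites per 100 nt.

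Gp93, the Hsp90 protein of the ER, had fewer P-sites than Hsc70-3 in every list. Its ORF on the plus strand was called at chr3R:27948863-27951824, in 5 exons of FBtr0085254. Counts were 1437 with A-RNaseI and 2552 with E-RNaseI with cycloheximide, 875 and 918 without it, and 12398 in the deep list. The density of Hsc70-3 exceeded that of Gp93 by 5.95-fold (5.62 to 6.30) with A-RNaseI and cycloheximide, the lowest of the 5 values, and by 7.75-fold (7.22 to 8.33) with A-RNaseI without cycloheximide, the highest.

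Hsc70-4, the main constitutive Hsp70 of the cytosol and nucleus, came next in density in all 5 lists. Its ORF of 651 codons, in 1 exon of FBtr0083057, lay on the plus strand at chr3R:15244361-15246314. The counts were 5911 and 10341 with cycloheximide for A-RNaseI and E-RNaseI, 4455 and 3618 without it, and 50560 in the deep list. The density of Hsc70-3 over that of Hsc70-4 was 1.20 (1.16 to 1.24) with A-RNaseI and 1.29 (1.25 to 1.32) with E-RNaseI when cycloheximide was given. When it was not the ratio was 1.41 (1.36 to 1.47) and 1.50 (1.44 to 1.56), and it was 1.51 (1.50 to 1.53) in the deep list. All 3 values without cycloheximide were thus above both values with it.

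Hsp83, the cytosolic Hsp90, was the third in density in all 5 lists. The ORF called in every list had 700 codons in 1 exon of FBtr0332873, on the plus strand at chr3L:3194551-3196651. Whether this ORF begins at the annotated start codon could not be checked here. It held 4151 P-sites with A-RNaseI and 8172 with E-RNaseI in cells treated with cycloheximide, 2431 and 2443 in untreated cells and 34415 in the deep list. The densities were 198, 389, 116, 116 and 1639 P-sites per 100 nt. The cytosolic Hsp90 stood 2.79 to 3.60 times above the ER Hsp90, Gp93, in density.

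DnaJ-1, a J-domain protein that works with cytosolic Hsp70, had far fewer P-sites than its partner. Its ORF of 334 codons lay in 1 exon of FBtr0077124 on the minus strand at chr3L:5750592-5751592. The counts were 186 and 412 with cycloheximide for A-RNaseI and E-RNaseI, 109 and 100 without it, and 1303 in the deep list. The density of Hsc70-4 was 12.9-fold (11.7 to 14.2) that of DnaJ-1 with E-RNaseI and cycloheximide, the lowest of the 5 lists, and 21.0-fold (17.3 to 25.6) with A-RNaseI without cycloheximide, the highest.

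Among the mitochondrial members, Hsc70-5 is the Hsp70 of the matrix, where it helps import proteins, and Hsp60A is the matrix chaperonin. Hsc70-5 had 1336 and 2411 P-sites with cycloheximide for A-RNaseI and E-RNaseI, 1062 and 867 without it, and 12409 in the deep list, on the minus strand at chr2R:14253193-14255922 in 6 exons of FBtr0087568. Hsp60A had 779, 1871, 578, 630 and 9029 P-sites in the same order of lists, on the plus strand at chrX:11110042-11111824 in 2 exons of FBtr0073434. The density of Hsc70-5 was above that of Hsp60A in all 5 lists. The ratio was 1.43 (1.31 to 1.57) and 1.55 (1.40 to 1.72) with A-RNaseI, with and without cycloheximide. With E-RNaseI it was 1.08 (1.01 to 1.14), 1.16 (1.04 to 1.29) and 1.15 (1.12 to 1.18) in the list with cycloheximide, the one without it and the deep list, all below both A-RNaseI values.

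The small heat shock proteins, whose genes lie near each other on 3L, were the lowest of the 10 genes and were not called in every list. Hsp23 had 32 P-sites (21.9 to 45.2) with A-RNaseI and cycloheximide, 95 (76.9 to 116) with E-RNaseI and cycloheximide, 29 (19.4 to 41.6) with E-RNaseI without it and 461 in the deep list, and no ORF with A-RNaseI without cycloheximide. Hsp27 was called only with E-RNaseI and cycloheximide, with 31 P-sites, and in the deep list, with 187. Hsp26 was called only in the deep list, with 51 P-sites (38.0 to 67.1).

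The longest Hsp23 ORF lay on the plus strand at chr3L:9381999-9382557 (FBtr0309504), the Hsp27 ORF on the plus strand at chr3L:9384187-9384826 (FBtr0346541) and the Hsp26 ORF on the minus strand at chr3L:9376565-9377187 (FBtr0346539), each in 1 exon. In the deep list their densities were 82.6 for Hsp23, 29.3 for Hsp27 and 8.17 for Hsp26 P-sites per 100 nt, against the median of 27.4. Hsp26 was thus the one member below the median there, and the other 9 were above it. The interval of Hsp27 (25.2 to 33.8) included that median. With E-RNaseI and cycloheximide Hsp27 lay below the median of the list, at 4.85 against 7.45. The 3 genes held at most 0.353% of the P-sites of the 10 genes in any list.

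The deep counts were also brought to the depth of the standard lists, to see how many P-sites each small heat shock gene would have had there at an unchanged share. The lowest count of any ORF over all 5 lists was 6. Hsp26 came to 5.50 P-sites for A-RNaseI with cycloheximide, 3.88 for A-RNaseI without it and 3.60 for E-RNaseI without it, all below that lowest count, and to 11.0 for E-RNaseI with cycloheximide. Hsp27 came to 20.2, 14.2 and 13.2 in the 3 standard lists without its ORF, and Hsp23 to 35.1 in the list without its ORF. These values carry counting error, so a count of 6 or more could still have arisen. Why the ORFs of Hsp26, Hsp27 and Hsp23 were missing from these lists was not tested.

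**Figure D1:**
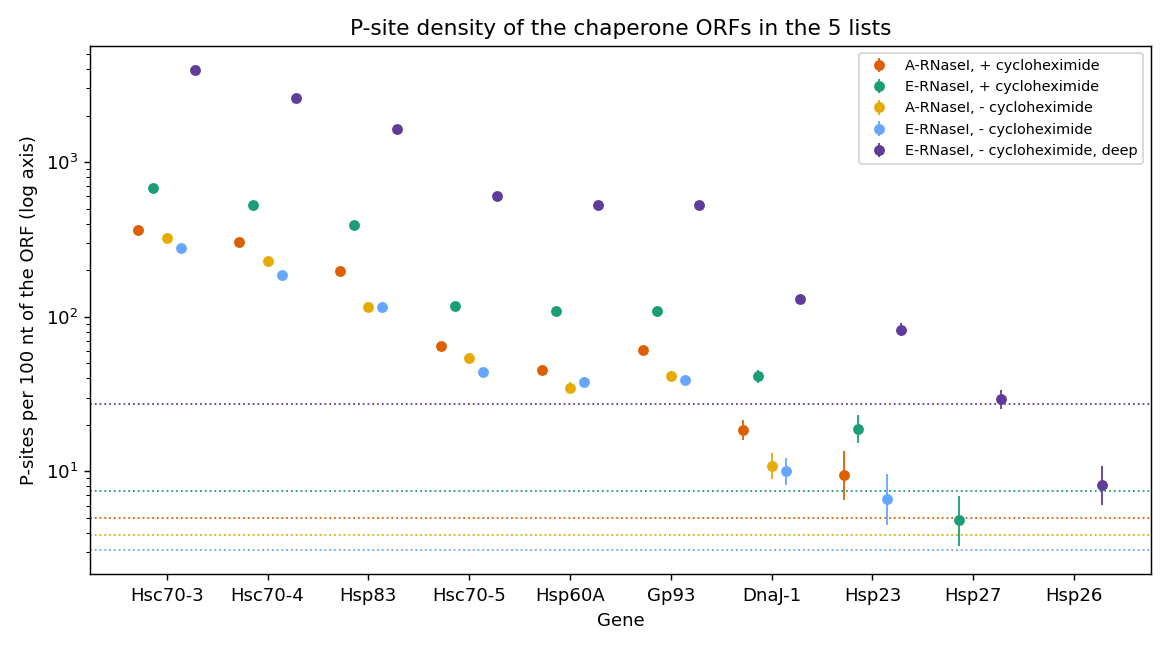
P-sites per 100 nt of the called ORF (log axis) for each chaperone gene in each of the 5 lists, with exact 95% Poisson intervals as bars and the median of all stop codons of each list as a dotted line in the same colour. Hsc70-3, Hsc70-4 and Hsp83 lie highest in every list, and Hsp26 appears only in the deep list, at 8.17.

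The order of densities was the same for the top of the list in all 5 lists: Hsc70-3, Hsc70-4, Hsp83, then Hsc70-5. The counting intervals of the first 4 genes did not overlap among themselves. Below them the order changed between lists. Hsc70-5 and the next gene overlapped in 3 lists, which were both lists with cycloheximide and the standard list of E-RNaseI without it. Gp93 was above Hsp60A with A-RNaseI by 1.34-fold (1.23 to 1.47) with cycloheximide and 1.20-fold (1.07 to 1.33) without. With E-RNaseI their ratio was 0.993 (0.935 to 1.05), 1.03 (0.927 to 1.14) and 1.00 (0.973 to 1.03) in the list with cycloheximide, the list without it and the deep list. DnaJ-1 and Hsp23 overlapped only with E-RNaseI without cycloheximide, at 9.98 and 6.67 P-sites per 100 nt.

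By compartment, the members of the ER (Hsc70-3 and Gp93) held 40.9% (40.2 to 41.5) and 40.6% (40.1 to 41.1) of the P-sites of the 10 genes with cycloheximide, for A-RNaseI and E-RNaseI. Without it they held 45.5% (44.7 to 46.3), 45.4% (44.6 to 46.2) and, in the deep list, 45.2% (45.0 to 45.5). The cytosolic members Hsp83, Hsc70-4 and DnaJ-1 held 48.9% and 48.2% with cycloheximide and 44.2%, 43.8% and 43.6% without. The ER members thus held less than the cytosolic members with cycloheximide and more without it, for both enzymes. Among the ER members, the lower share with cycloheximide was that of Hsc70-3. It held 34.0% and 34.1% with cycloheximide and 39.96%, 38.9% and 39.0% without. Gp93 held 6.86% with and 5.52% without cycloheximide for A-RNaseI, and 6.49% and 6.52% for E-RNaseI. Among the cytosolic members, Hsp83 held 19.8% and 20.8% with cycloheximide and 15.3%, 17.4% and 17.4% without. Hsc70-4 held 28.2% and 26.3% with it and 28.1%, 25.7% and 25.5% without. DnaJ-1 held 0.888% and 1.05% with it and 0.688%, 0.711% and 0.658% without. The mitochondrial members stayed between 10.1% and 10.9%.

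The effect of cycloheximide was compared within each enzyme, as the ratio of P-sites with over without it. For Hsc70-3 the ratio was 0.800 (0.775 to 0.825) with E-RNaseI and 0.794 (0.767 to 0.821) with A-RNaseI, the lowest value of the members in both pairs. Over all stop codons in both lists of a pair, 19.4% and 18.7% had a lower ratio than Hsc70-3. Hsc70-4 gave 0.932 (0.897 to 0.968) and 0.936 (0.900 to 0.973), and Hsc70-5 gave 0.907 (0.839 to 0.981) and 0.887 (0.818 to 0.962). For these 3 Hsp70 genes both intervals lay below 1. Over all stop codons, 37.6% and 37.3% had a lower ratio than Hsc70-4, and 33.9% and 30.5% a lower ratio than Hsc70-5. Hsc70-4 and Hsc70-5 thus lay between the quartiles of all stop codons, 0.848 to 1.28 with E-RNaseI and 0.847 to 1.26 with A-RNaseI. The share of all stop codons with both intervals below 1 is not given here.

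Hsp83 was the one member with both intervals above 1, at 1.09 (1.04 to 1.14) with E-RNaseI and 1.20 (1.15 to 1.27) with A-RNaseI. Of all stop codons, 57.8% and 70.6% had a lower ratio, so Hsp83 also lay between the quartiles of all stop codons. DnaJ-1 gave 1.34 (1.08 to 1.69) and 1.20 (0.945 to 1.54), the latter within counting error of 1. Hsp60A gave 0.968 (0.884 to 1.06) and 0.950 (0.852 to 1.06), both within counting error of 1. Hsp23, with a value for E-RNaseI only, gave 1.07 (0.698 to 1.68). Its ORF was 69 nt longer with cycloheximide, and per nt of ORF the ratio was 0.922.

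Gp93 was the member whose ratio lay on different sides of 1, at 0.907 (0.840 to 0.979) with E-RNaseI and 1.16 (1.06 to 1.26) with A-RNaseI. The ORF of Gp93 was shorter in the list of A-RNaseI without cycloheximide. Per nt of ORF its ratio with A-RNaseI was 1.03.

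None of the 8 members with a value for E-RNaseI, nor of the 7 for A-RNaseI, differed 2-fold. Of all 5684 stop codons in both E-RNaseI lists, 3.91% were at least 2-fold higher and 2.41% at least 2-fold lower with cycloheximide. Of 4007 for A-RNaseI these shares were 5.42% and 3.82%, so most stop codons, like the members, did not pass. The median ratio of the members was 0.950 for both enzymes, against 1.03 for E-RNaseI and 1.02 for A-RNaseI over all stop codons.

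The E-RNaseI and A-RNaseI pairs share no sample, so their ratios can be set side by side. For 6 of 7 members both ratios lay on the same side of 1, as did 62.5% of all stop codons in the 4 standard lists. For the members, the log2 ratios had a Pearson r of 0.77 and a Spearman rho of 0.75. Over the 3853 stop codons in all 4 standard lists r was 0.25 and rho 0.32. The 7 members had 100 to 5468 P-sites with E-RNaseI without cycloheximide, against a median of 39 per stop codon, so their ratios carry less counting error than most. The part of this depth in the closer likeness was not tested.

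**Figure D2:**
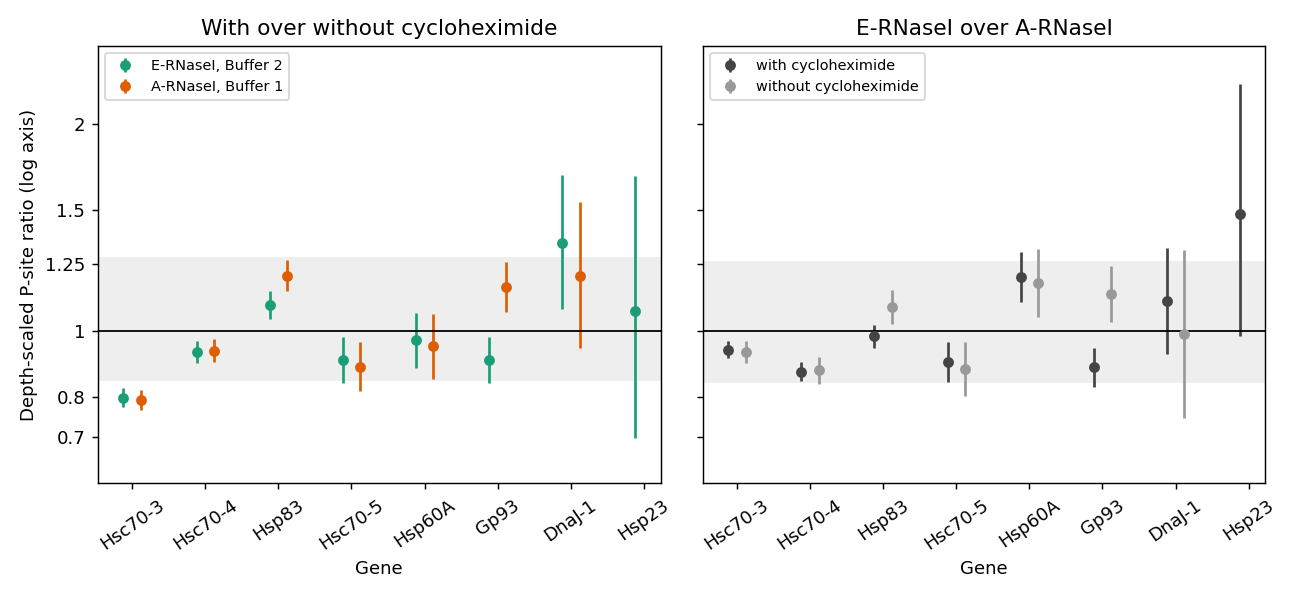
Depth-scaled ratio of P-sites (log axis) for each chaperone gene, with over without cycloheximide on the left and E-RNaseI over A-RNaseI on the right, with exact 95% intervals of counting error as bars. The grey band spans the middle 50% of all stop codons, for the E-RNaseI pair on the left and the pair with cycloheximide on the right. Hsc70-3 lies below the band on the left at 0.800 and 0.794, and Gp93 lies on different sides of 1 in both panels.

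E-RNaseI in Buffer 2 was then compared with A-RNaseI in Buffer 1, once with and once without cycloheximide. Hsc70-3, Hsc70-4 and Hsc70-5 had fewer P-sites with E-RNaseI after scaling on the common ORFs, with intervals below 1 both times, and also when scaled by all P-sites or by the median ratio. With and without cycloheximide, Hsc70-4 gave 0.873 (0.845 to 0.901) and 0.876 (0.838 to 0.915), Hsc70-5 gave 0.900 (0.842 to 0.963) and 0.880 (0.804 to 0.964), and Hsc70-3 gave 0.939 (0.912 to 0.966) and 0.932 (0.898 to 0.966). Hsp60A was the one member with both intervals above 1 on the common ORFs, at 1.20 (1.101 to 1.304) and 1.18 (1.05 to 1.32). Scaled by all P-sites, its interval without cycloheximide included 1, at 1.08 (0.961 to 1.21). On the common ORFs, 28.4% and 29.1% of all stop codons had a lower ratio than Hsc70-4, and 31.8% and 29.8% than Hsc70-5. For Hsc70-3 these shares were 37.2% and 35.9%, and for Hsp60A 69.9% and 68.4%. All these genes thus lay between the quartiles of all stop codons, 0.843 to 1.26 with cycloheximide and 0.839 to 1.24 without it.

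Hsp83 gave 0.982 (0.946 to 1.02) with and 1.08 (1.02 to 1.15) without cycloheximide, and scaled by all P-sites these were 0.910 (0.876 to 0.944) and 0.993 (0.938 to 1.05). DnaJ-1 gave 1.105 (0.927 to 1.32) and 0.989 (0.747 to 1.31), both within counting error of 1. Gp93 gave 0.886 (0.830 to 0.946) and 1.13 (1.03 to 1.24), the latter 1.01 per nt of its ORF, which was shorter with A-RNaseI, and 1.04 (0.944 to 1.14) scaled by all P-sites. Hsp23 gave 1.48 (0.983 to 2.28) with cycloheximide and 0.987 per nt of ORF.

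None of the 8 members with cycloheximide, nor of the 7 without, differed 2-fold. Of all 5120 stop codons in both lists with cycloheximide, 4.67% were at least 2-fold higher and 2.3% at least 2-fold lower with E-RNaseI. Of 4305 without cycloheximide these were 4.55% and 2.51%. The split of all stop codons depended on the scale: 53.4% were above 1 with cycloheximide on the common ORFs and 43.1% when scaled by all P-sites, and without cycloheximide 54.7% and 41.5%.

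The deep list and the standard list of the same labels gave nearly the same relative counts for the members. The scaled ratio of deep over standard ranged from 0.919 for DnaJ-1 to 1.12 for Hsp23, with a median of 0.994, and none of 8 members differed 2-fold. The ORF of Hsp23 was 123 nt longer in the deep list, and per nt its ratio was the lowest of the members, at 0.874. Of all 5791 stop codons in both lists, 2.02% were at least 2-fold higher and 0.587% at least 2-fold lower in the deep list. On the common scale 58.2% of them were above 1, and 45.8% when scaled by all P-sites. On the common scale the intervals of all 8 members included 1. Scaled by all P-sites, the intervals of Hsp83, Hsc70-3, Hsc70-4 and Gp93 lay below 1, at 0.951 (0.913 to 0.992), 0.953 (0.927 to 0.980), 0.944 (0.913 to 0.976) and 0.912 (0.853 to 0.976). Scaled by the median ratio, those of Hsc70-3, Hsc70-4 and Gp93 did, at 0.967, 0.958 and 0.926.

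The lists also name a start codon for each ORF, which by the methods is set from where P-sites begin and so can move downstream in a list with fewer P-sites. Each of the 10 genes had exactly 1 ORF in each list in which it was found. Over all genes, the share with exactly 1 ORF was 70.8% and 68.9% with cycloheximide for A-RNaseI and E-RNaseI, 72.8% and 72.3% without it and 67.3% in the deep list. The stop codons of 7 members were in all 5 lists, while 47.0% of the 8201 stop codons of any list were.

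Of these 7 members, Hsp83, Hsc70-3, Hsc70-4 and DnaJ-1 had the same start codon in all 5 lists. Among all 3851 stop codons in all lists, 28.1% did. The first 3 were the members with the most P-sites in every list, and DnaJ-1 had 100 in its lowest list, fewer than all 3 members whose start moved. The part of P-site number in these starts was not tested.

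Both mitochondrial members had 1 start with cycloheximide and in the deep list, and another, downstream, in both standard lists without cycloheximide. For Hsc70-5 the ORF had 686 codons in the former 3 lists and 659 in the latter 2, 27 codons fewer. For Hsp60A the ORF had 573 and 555 codons, 18 fewer. As background, proteins of the mitochondrial matrix are made in the cytosol and mostly carry a targeting sequence at their start that is removed after import. This pattern was seen for 4.57% of the 3851 stop codons, 176 in number, and for 2 of the 7 members. The lists with the downstream start held fewer P-sites of both genes than the other 3 lists, and the part of depth in the difference was not tested.

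Gp93 differed in 1 list only. Its ORF had 787 codons in 4 lists and 703 with A-RNaseI without cycloheximide, 84 codons fewer and in 2 exons instead of 5. That list had 875 P-sites on Gp93, the fewest of the 5, and the list of E-RNaseI without cycloheximide had 918 and the longer ORF. Why the start of Gp93 differed was not tested. As background, the signal sequence that sends a protein to the ER lies at its start.

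Hsp23 had a different start in each of the 4 lists that called it, with 112 codons for A-RNaseI and 168 for E-RNaseI with cycloheximide, 145 for E-RNaseI without it and 186 in the deep list. The longest ORF was that of the list with the most P-sites, 461, and the shortest, with 32, was not that of the list with the fewest, 29.

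Counted by pair, the start lay upstream with cycloheximide for 3 of 8 members with E-RNaseI (Hsc70-5, Hsp60A and Hsp23) and for 3 of 7 with A-RNaseI (Hsc70-5, Hsp60A and Gp93). Over all stop codons it did so for 36.8% and 35.4%. In the deep list it lay upstream of that in the standard list for 3 of 8 members, Hsc70-5, Hsp60A and Hsp23, against 41.3% of all stop codons. For no member did it lie downstream in these 3 pairs, while it did for 11.3%, 19.6% and 7.01% of all stop codons.

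**Figure D3:**
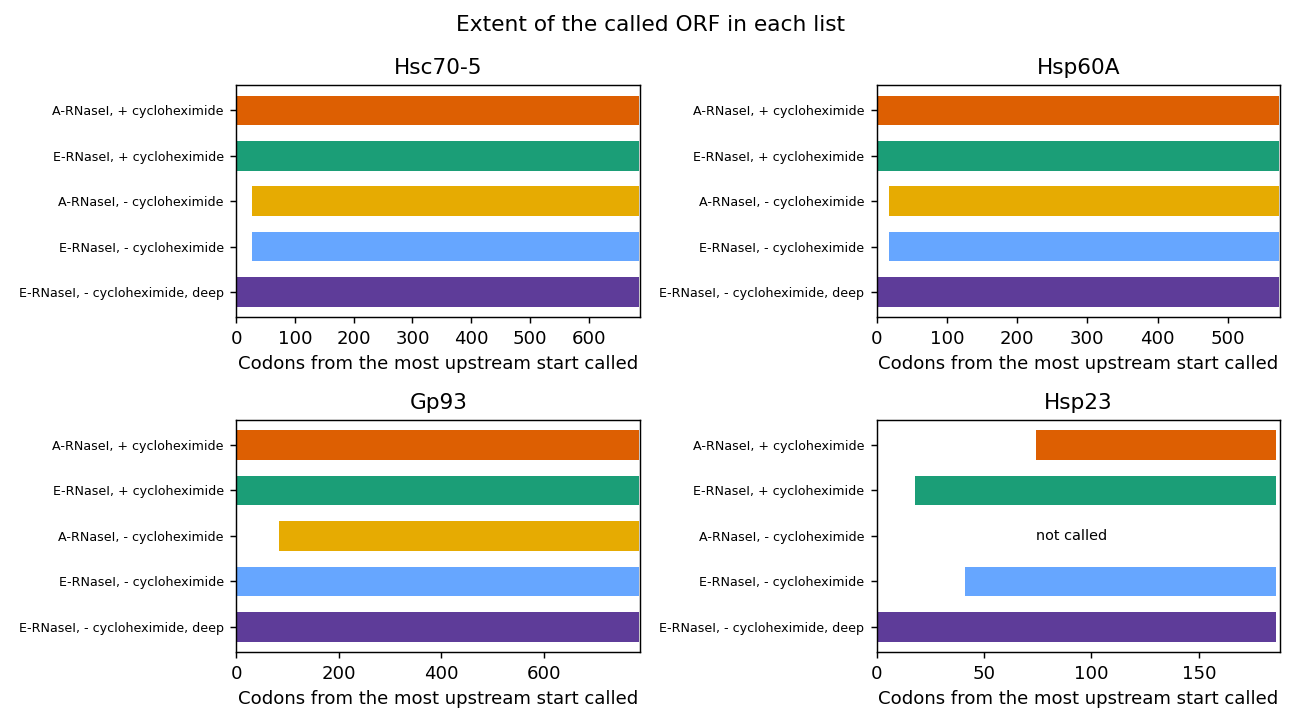
Extent of the called ORF in codons, counted from the most upstream start called for that gene, for the 4 chaperone genes whose start differed between lists. Each bar is the ORF of 1 list and all bars of a gene end at the same stop codon. Hsc70-5 and Hsp60A begin 27 and 18 codons downstream in both standard lists without cycloheximide, Gp93 begins 84 codons downstream in 1 list, and Hsp23 differs in each of the 4 lists that called it.

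The 10 genes were set beside 51 other genes of protein folding, of which 47 symbols were matched to the annotation. Of these, 29 had an ORF with cycloheximide for both enzymes, 27 and 29 without it for A-RNaseI and E-RNaseI, and 30 in the deep list. Of 9 other Hsp70 family genes, only Hsp68, a stress-inducible Hsp70, was found, with 95 and 179 P-sites with cycloheximide for A-RNaseI and E-RNaseI, 95 and 70 without it and 1129 in the deep list. The 6 heat-inducible Hsp70A and Hsp70B genes, Hsc70-1 and Hsc70-2 had no ORF in any list. The Hsp70A and Hsp70B genes are near-identical copies and the methods removed ORFs that rested on reads mapping to several places, so their translation cannot be read from these lists.

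None of 4 other small heat shock genes, Hsp22, Hsp67Ba, Hsp67Bc and l(2)efl, was assigned an ORF. Hsp22 shares its span with another gene, and the 2 ORFs of the deep list there were not assigned. All 8 subunits of the cytosolic chaperonin TRiC were found in each list, with deep densities from 232.5 for CCT7 to 990 for CCT5 P-sites per 100 nt and a median of 471. Hsp60A, the mitochondrial chaperonin, at 525, lay within that range.

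All 6 genes of ER folding were found in each list, from Ero1L, an oxidase that keeps protein disulphide isomerases active, at 27.5 to ERp60, a disulphide isomerase, at 2606 P-sites per 100 nt in the deep list. Hsc70-3 was above ERp60, at 3920.0, and Gp93 below the class median of 920.2. CG11267, the Hsp10 partner of Hsp60A, stood at 700 and Trap1, the mitochondrial Hsp90, at 46.1. Hsp60B, Hsp60C and Hsp60D, relatives of Hsp60A, had no ORF in any list.

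Among helpers of Hsp90, p23 was highest at 723 and the ubiquitin ligase STUB1 lowest at 40.3, both below Hsp83 at 1639. Among other J-domain genes, Droj2 was highest at 429 and jdp lowest at 3.25, and DnaJ-1 lay between them at 130. DnaJ-60 was assigned no ORF, and the 2 ORFs in its span in the deep list also lay in that of another gene. Hsp110, a nucleotide exchange factor for Hsp70, was at 352. Among the regulators, Xbp1 was highest at 97.4 and Atf6 lowest at 14.4, both factors of the ER stress response, and stv, a co-chaperone gene, had no ORF. Of the 51 other genes, ERp60 was denser than Hsp83 in the deep list, and 8 were denser than Hsc70-5. Calr, the calcium-binding ER chaperone calreticulin, had the density of Hsp83 within counting error there, at a ratio of 0.999 (0.982 to 1.02). It was 1.48 times (1.40 to 1.57) as dense as Hsp83 with A-RNaseI without cycloheximide and 0.770 times (0.741 to 0.801) with E-RNaseI and cycloheximide.

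**Figure D4:**
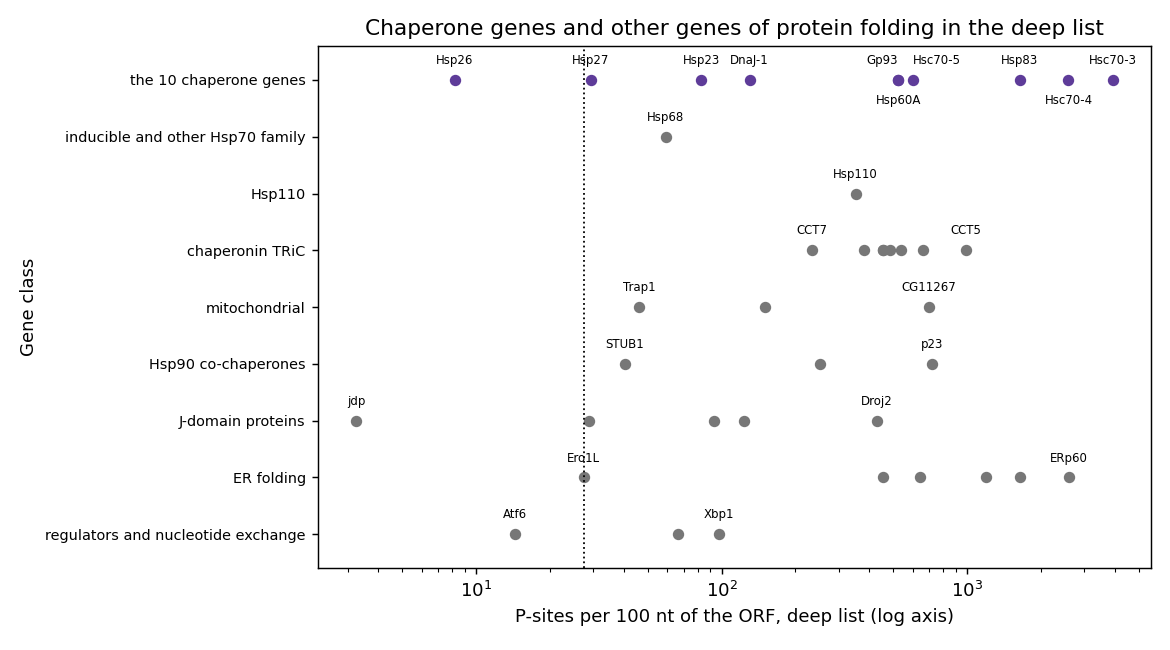
P-sites per 100 nt of the ORF in the deep list (log axis) for the 10 chaperone genes and for the other genes of protein folding with an ORF there, by class, with the median of all stop codons as a dotted line. The names of the lowest and highest gene of each other class are given, and among the other genes ERp60 lies above Hsp83, with Calr, unnamed, level with it.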

How the data were processed

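The authors trimmed reads with cutadapt 2.10, removed rRNA with Bowtie2 2.4.1, aligned with STAR 2.7.5c and SAMtools 1.10 to Release 6, and called translated ORFs with RiboTaper, per the methods and the submitters' processing notes. The deposited files are 5 ORF lists with a column of whole-number counts, which no header names and which were read here as P-sites. The methods state that alignments were subsampled to a common read number, but not outright that the lists come from these. Read lengths used differed between lists.

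Here, the longest ORF per stop codon was kept, genes were taken from RefSeq's Release 6 table, density was P-sites per 100 nt, and lists were scaled by P-sites on the 1165 stop codons of ORFs identical in all 5 lists. Ratio intervals were exact Clopper-Pearson intervals, with the depth ratio taken as known, and count intervals were exact Poisson intervals (Python 3.11.15, pandas 2.3.3, scipy 1.17.1). The computation was tested on simulated data. All 10 genes are named. Other folding genes are named at the top or bottom of their class or where not found. Members and lists were chosen with earlier results of these data known. The symbols l(2)tid, Hop, Ahsa1, HSPBP1 and nos were not matched and are not analysed here. Alternatives were scaling by all P-sites and a minimum of 20 P-sites, among others. The labels and the methods differ on the NaCl of Buffer 2. There were no replicates.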

Additional observations from a re-analysis of the deposited data

Results flagged for a closer look

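For 3 genes a ratio lay on different sides of 1 in the 2 settings in which it was measured. None of these differences was tested, since each condition had 1 sample. Gp93, the ER Hsp90, gave a ratio with over without cycloheximide of 0.907 with E-RNaseI and 1.16 with A-RNaseI. Its ratio of E-RNaseI over A-RNaseI was 0.886 with cycloheximide and 1.13 without it. The list of A-RNaseI without cycloheximide, in which its ORF was 84 codons shorter, enters 1 side of each pair. For Hsp83, the cytosolic Hsp90, the ratio of E-RNaseI over A-RNaseI was 0.982 with cycloheximide and 1.08 without it. For DnaJ-1, the Hsp70 partner, it was 1.105 with cycloheximide and 0.989 without it, both within counting error of 1.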

How the results depend on the processing

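No paired analysis was possible because the conditions compared share only 1 replicate number. An additive fit of cycloheximide and enzyme over the 4 standard lists was not run. No condition has a replicate to leave out, and without the deep list 4 members had 1 start codon, as in all 5 lists. No ratio that differed 2-fold changed sides, since none of the members' ratios did. Of the 67 values that answer a comparison under an alternative, 56 moved by less than their interval. Many of the 56 had no room to move. The 15 with other protein-coding genes allowed in the span equalled the main values. The members' ratios could not change with the ORF of most P-sites, as each gene had 1 ORF per list. Nor could they with at least 20 P-sites, as all their counts were above that. The 56 are thus no measure of robustness. Scaled by all P-sites, the members' median ratio of E-RNaseI over A-RNaseI with cycloheximide was 0.889, and that of the deep over the standard list 0.952. With at least 20 P-sites per ORF, the median percentile of the members' density was 94.3, 94.5, 94.5 and 93.6 (A-RNaseI and E-RNaseI with cycloheximide, then without), against 95.0, 95.1, 95.4 and 95.2. With overlapping ORFs counted once, an alternative chosen after seeing the data, the members' share of P-sites was 2.62%, 2.29%, 2.89% and 2.56% in that order and 2.44% in the deep list. Of 38 ratios of single genes, 3 changed their side of 1 with the scale, which were Hsp83 for E-RNaseI over A-RNaseI without cycloheximide and Hsc70-5 and Hsp60A for deep over standard. None of these was a ratio of cycloheximide. Per nt of ORF, Hsc70-5 and Hsp60A changed sides for deep over standard. Hsp23 did so in all its ratios: 0.922 with over without cycloheximide, 0.987 for E-RNaseI over A-RNaseI and 0.874 for deep over standard. Counting error limits Hsp23, Hsp26 and Hsp27 most.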

Other observations

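Other folding genes were set side by side for cycloheximide as the members were. For the 8 TRiC subunits the ratio with over without cycloheximide had a median of 0.892 with E-RNaseI, from 0.762 for CCT3 to 1.25 for CCT5, and 0.989 with A-RNaseI, from 0.856 for CCT3 to 1.19 for CCT5. The same subunits were thus lowest and highest with both enzymes, but most of these ranks were within counting error. The interval of CCT3 overlapped that of CCT8 with E-RNaseI (0.688 to 0.846 and 0.770 to 0.921) and that of CCT2 with A-RNaseI. CCT5 overlapped CCT4 with A-RNaseI (1.11 to 1.27 and 1.04 to 1.27). With E-RNaseI CCT5 (1.17 to 1.34) lay clear of CCT4 (0.882 to 1.05), the next highest. For the 6 ER folding genes the medians were 1.02 and 0.883. For p23, a co-chaperone of Hsp90, the ratio was 4.72 (3.47 to 6.53) with A-RNaseI, from 321 P-sites on an ORF of 552 nt and 48 on an ORF of 171 nt, which was 1.46 per nt of ORF. With E-RNaseI it was 0.942 (0.817 to 1.09). Trap1, the mitochondrial Hsp90, gave 1.88 (1.41 to 2.56) with E-RNaseI, 1.87 per nt, and 1.12 (0.845 to 1.48) with A-RNaseI.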
